A study of Mus musculus with 3 samples.

Results

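Gata1, Gata2, Klf1, Zfpm1, Nfe2, Tal1, Gfi1b and Lmo2 encode transcription factors and cofactors of the megakaryocyte and erythroid lineages. These 8 genes were chosen by name, and all 8 were among the 14721 genes of the deposited UMI count table, in which a UMI marks 1 captured RNA molecule. Single-cell libraries (Chromium 3' v2) were made from LSK cells sorted from mouse bone marrow, a fraction defined by Sca-1 and Kit on lineage-negative cells, which holds stem cells and multipotent progenitors. The DKO library came from Spop(D/D) Myd88(-/-) cells, the KO library from Spop(D/D) Myd88(+/+) cells and the WT library from Spop(+/+) Myd88 (+/+) cells. Spop encodes the substrate receptor of a ubiquitin ligase and Myd88 an adaptor through which Toll-like and IL-1 receptors signal. The Cre driver, the age of the animals and the number of animals behind a library are not stated in the labels.

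GATA2 is the GATA factor of stem and early progenitor cells. As cells enter the erythroid and megakaryocyte lineages, GATA1 comes to occupy many of the same sites, a succession known as the GATA switch. GATA1 works with its cofactor FOG1 (the product of Zfpm1) and in a complex in which LMO2 bridges GATA factors to the E-box binding protein TAL1. KLF1 binds CACCC boxes of globin and other erythroid genes, NFE2 is the blood-specific subunit of NF-E2 and is needed for platelet release, and GFI1B is a repressor of both lineages that recruits the demethylase LSD1.

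Because the 2 members that differed most between the libraries were Klf1 and Gata1, and because these factors are known to bind each other's regulatory DNA, their proximal promoters are shown with that of Gfi1b, whose level differed little. Capitals mark GATA motifs (AGATAA or TGATAA) and CACCC, each searched on both strands. The windows run from 250 bases before to 50 bases after the RefSeq start (build GRCm38.p6). They are, 5′ to 3′, Klf1 at chr8:84901732-84902031 on the plus strand, Gata1 at chrX:7967861-7968160 on the minus strand and Gfi1b at chr2:28621933-28622232 on the minus strand.
Klf1: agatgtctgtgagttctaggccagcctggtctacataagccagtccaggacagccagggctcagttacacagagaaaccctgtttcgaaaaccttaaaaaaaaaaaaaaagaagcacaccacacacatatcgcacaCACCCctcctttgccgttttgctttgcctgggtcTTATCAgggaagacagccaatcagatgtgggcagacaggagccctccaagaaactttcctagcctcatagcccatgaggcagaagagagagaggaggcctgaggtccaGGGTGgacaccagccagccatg
Gata1: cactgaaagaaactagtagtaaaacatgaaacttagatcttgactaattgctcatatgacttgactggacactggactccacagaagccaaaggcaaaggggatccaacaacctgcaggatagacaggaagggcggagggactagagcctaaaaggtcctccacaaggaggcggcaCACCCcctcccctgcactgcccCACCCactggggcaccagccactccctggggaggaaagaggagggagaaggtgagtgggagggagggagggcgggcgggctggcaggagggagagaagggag
Gfi1b: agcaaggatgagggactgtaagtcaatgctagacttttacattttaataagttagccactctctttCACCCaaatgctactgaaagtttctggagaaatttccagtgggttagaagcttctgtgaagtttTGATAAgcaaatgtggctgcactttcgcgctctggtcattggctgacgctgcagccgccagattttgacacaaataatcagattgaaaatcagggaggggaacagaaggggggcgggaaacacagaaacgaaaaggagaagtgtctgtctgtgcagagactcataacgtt

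The Klf1 window held 1 GATA match beginning 80 bases upstream of the start, and 2 CACCC matches, 1 of them 114 bases upstream and 1 of them 28 bases downstream. The Gata1 window held 0 GATA matches and 2 CACCC matches, 74 and 52 bases upstream. It lies inside the annotated Gata1 gene, since GENCODE places that gene at chrX:7959260-7978071 on the minus strand, and a start further upstream was not examined. In Gfi1b, 1 GATA match lay 120 bases and 1 CACCC match 184 bases upstream. RefSeq windows were found for 6 of the 8 members, 8 windows in all, and those of Klf1, Gfi1b and 1 of the 2 of Tal1 held both motifs. Over all 32851 promoter windows of this length, 18.6% held a GATA match, 57.5% a CACCC match and 8.96% both. The E-box CANNTG was in 72.3% of all windows and a consensus NF-E2 motif in 0.155%, and that NF-E2 motif was in 0 of the 8. No GATA match overlapped a CACCC match in these windows.

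The libraries differed in depth, with 8184 cells and 109920419 UMIs in DKO, 4920 cells and 101393024 UMIs in KO, and 8147 cells and 85700749 UMIs in WT. Median UMIs per cell were 12404.5 in DKO, 17319 in KO and 9245 in WT. Between 46 and 83 cell barcodes were shared by each pair of libraries. Spop stood at 77.1, 63.1 and 70.7 UMIs per 1000000 (CPM) in DKO, KO and WT, and as 3' tags these do not test a deletion whose exons the labels do not name. Myd88 stood at 4.47, 25.8 and 13.7 CPM. Xist was at 1537 CPM in DKO, 0 in KO and 0.187 in WT, and the Y-linked Ddx3y at 0, 32.2 and 43.9, so DKO cells were female and KO and WT cells male. With 1 library per genotype there is no replicate and no test between genotypes, and the library, the genotype and, for DKO, the sex cannot be told apart. All intervals are 95% intervals for counting error only. In sums over a library, fewer cells of a type and less RNA per cell cannot be told apart.

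Klf1 and Gata1 stood apart from the other members. Klf1 was at 9.73 CPM in DKO (exact Poisson interval 9.16 to 10.3), 46.3 in KO (45.0 to 47.6) and 4.53 in WT (4.09 to 5.001). Gata1, an X-linked gene, was at 15.1 CPM in DKO (14.4 to 15.9), 27.8 in KO (26.8 to 28.8) and 6.20 in WT (5.68 to 6.75). For both genes the KO library was highest, DKO was between, WT was lowest, and no 2 intervals overlapped. Gata2 had another order, at 91.8 CPM in DKO (90.03 to 93.6), 41 in KO (39.8 to 42.3) and 54.2 in WT (52.6 to 55.7).

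Of the partners of the GATA factors, Zfpm1 and Tal1 differed less between the libraries. Zfpm1 was at 29.4 CPM in DKO, 27.5 in KO and 25.4 in WT, where the DKO and KO intervals (28.4 to 30.4 and 26.5 to 28.5) overlapped slightly. Tal1 was at 30.01, 27.5 and 30.8 CPM in DKO, KO and WT, with overlapping intervals for DKO and WT. Lmo2 was at 676.6 CPM in DKO, 430.7 in KO and 607.5 in WT, lowest in KO like Gata2. The repressor gene Gfi1b was at 17.9, 16.7 and 17.4 CPM in DKO, KO and WT, and all 3 intervals overlapped. Nfe2 was at 110.8 CPM in DKO, 68.8 in KO and 98.7 in WT, in the same order as Lmo2.

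**Figure D1:**
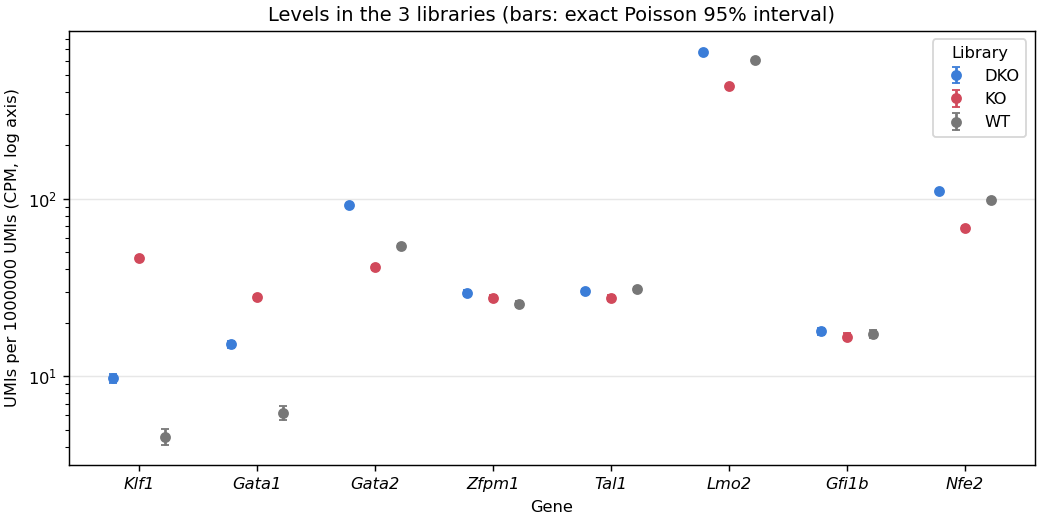
Level of each member in the DKO, KO and WT libraries, in UMIs per 1000000 UMIs on a log axis, with 1 point per library and exact Poisson 95% intervals, many of them smaller than the points. Klf1 stands at 9.73 CPM in DKO, 46.3 in KO and 4.53 in WT, while Gfi1b lies between 16.7 and 17.9 in all 3 libraries.

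The KO and WT libraries were set against each other for Spop deletion with Myd88 present. A gene was called at a ratio of at least 1.5 in either direction, among genes that averaged 5 CPM or more in the 2 libraries. In KO, Klf1 stood 10.2-fold above WT (exact binomial interval 9.21 to 11.4) and Gata1 4.49-fold higher (4.09 to 4.93). Of the 8 members 2 were called higher and 0 lower, against 7.77% higher and 17.1% lower of 9046 genes. Nfe2 had a ratio of 0.697 (0.676 to 0.720), Lmo2 0.709 (0.700 to 0.718) and Gata2 0.757 (0.726 to 0.790), which are below 1 but short of the threshold. Tal1 (0.894), Zfpm1 (1.08) and Gfi1b (0.962) lay near 1. The median log2 ratio was -0.11 over the members and -0.08 over all genes measured.

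The scale matters here, because TMM factors gave an all-gene median log2 KO over WT ratio of 0.08, in place of -0.08 from library totals. Among 9043 genes with UMIs in both libraries, 703 were called higher and 1547 lower with library totals, and 1250 higher and 1064 lower with TMM. Relative to either median, Klf1 and Gata1 kept their calls, at 11.3-fold and 4.98-fold higher in KO with TMM, while Tal1 stood at 0.992 and Gfi1b at 1.07. The Gata2 ratio came to 0.996 when each cell was given equal weight and 1.02 when cells were thinned to an equal depth, in place of 0.757 for the sums. KO over WT, Klf1 came to 14.6-fold and Gata1 to 6.77-fold with equal weights, and to 15.6-fold and 6.65-fold in the thinned cells, where Zfpm1 reached 1.52. Neutrophil-progenitor-like cells had a median of 35493.5 UMIs in KO and low Gata2, and their part in these changes was not tested.

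DKO was then set against KO, for loss of Myd88 in Spop-deleted cells. Klf1 was 4.75-fold lower in DKO than in KO (4.45 to 5.08) and Gata1 1.84-fold lower (1.73 to 1.95). Gata2 was 2.24-fold higher in DKO (2.16 to 2.32), Nfe2 1.61-fold higher (1.56 to 1.66) and Lmo2 1.57-fold higher (1.55 to 1.59). The 3 higher and 2 lower members stand against 17.9% higher and 6.32% lower of 8973 genes. Zfpm1, Tal1 and Gfi1b had ratios of 1.07, 1.09 and 1.07. With TMM the all-gene median went to -0.06 in place of 0.13, Nfe2 (1.41) and Lmo2 (1.37) were no longer called, and Gata2 (1.96), Gata1 (0.476) and Klf1 (0.184) were. The split of all genes, 1609 higher and 565 lower of 8970 with library totals, was 967 and 1108 with TMM. With equal weight for each cell, Klf1 was 7.26-fold and Gata1 2.61-fold lower in DKO than in KO. The KO library enters both of these comparisons, so their ratios are not independent of each other.

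DKO and WT differ at both loci. Gata1 was 2.44-fold higher in DKO than in WT (2.21 to 2.70), Klf1 2.15-fold (1.91 to 2.42) and Gata2 1.70-fold (1.64 to 1.76). These are 3 of 8 members called higher and 0 lower, against 3.62% higher and 3.55% lower of 9205 genes. The remaining ratios were 1.16 for Zfpm1, 1.12 for Nfe2, 1.11 for Lmo2, 1.03 for Gfi1b and 0.975 for Tal1. The all-gene median log2 ratio was 0.06, and the member median was 0.19.

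To see which cells carried the transcripts, the cells of the 3 libraries were clustered together, with the 8 members kept out of the genes that made the clusters. Class names required 3 or more markers from a single list within the 15 leading genes of a cluster, and 2 more than any other list had there. Erythroid-progenitor-like cells, led by the globin genes Hbb-bs and Hba-a1, were 984 KO, 2 DKO and 3 WT cells, so the cluster is almost wholly 1 library. Megakaryocyte-progenitor-like cells, led by Pf4, Gp1bb and Itga2b, were 979 DKO, 441 KO and 563 WT cells. A cluster led by both erythroid (Car1, Aqp1, Ermap) and basophil-mast genes (Prss34, Ms4a2, Fcer1a) has no class name and held 238 DKO, 231 KO and 46 WT cells. Stem-cell-like cells (1138 DKO, 12 KO, 759 WT), lymphoid-primed-like cells (459, 47, 1474), B-lineage-like cells (187, 48, 1247) and neutrophil-progenitor-like cells (72, 1110, 39) complete the named classes. These counts depend on the clustering, which did not align the libraries. With clusters made from WT cells the stem-cell-like class held 605 DKO, 101 KO and 728 WT cells. An unnamed cluster, with the stem cell markers Ifitm1 and Ly6a among its leading genes, held 1922 KO, 30 DKO and 31 WT cells. Summed stem cell markers stood at 1072 CPM in DKO, 1876 in KO and 1283 in WT, but the markers of that list did not move together. Hlf was at 31.0 CPM in KO and 117.6 in WT, and Ly6a at 85.1 and 90.4. Whether the unnamed cluster holds stem cells was not tested. Since the count moves with the clustering, the 12 KO cells are no measure of how many stem cells that library held. Values by cluster are a description, since members vary with the genes that made the clusters. Values from fewer than 50 cells are named as such and enter no ratio.

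Klf1, the erythroid factor of the set, was concentrated in 2 groups of cells. It stood at 260.0 CPM in KO erythroid-progenitor-like cells (252.0 to 268.3). In the erythroid and basophil-mast cluster it stood at 178.8 CPM in DKO (165.4 to 192.9), 129.3 in KO (117.8 to 141.6) and 231.3 in the 46 WT cells (194.9 to 272.5). In megakaryocyte-progenitor-like cells it was at 17.5, 22.4 and 23.0 CPM in DKO, KO and WT, with overlapping intervals, and in stem-cell-like cells at 2.64 in DKO and 1.16 in WT. Neutrophil-progenitor-like cells of KO held 1.28 CPM and B-lineage-like cells of WT 0.780, levels that free RNA in the droplets could also give.

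At least 1 Klf1 UMI was found in 92.1% of the 984 KO erythroid-progenitor-like cells (exact Clopper-Pearson interval 90.2 to 93.7), at a median of 14508.5 UMIs per cell. In KO neutrophil-progenitor-like cells, which should lack the gene, the share was 3.69% at a median of 35493.5 UMIs. With every cell thinned to 5500 UMIs the shares were 73.2% and 0.631%. Gata1 gave 80.8% and 2.25% unthinned and 49.8% and 0.450% thinned. Over whole thinned libraries, cells with a Klf1 UMI were 3.30% in DKO, 18.2% in KO and 1.43% in WT, against 5.89%, 25.7% and 2.59% unthinned. For Gata1 they were 6.17%, 15.1% and 2.60% thinned, against 11.8%, 26.6% and 4.15%. Thinning left out 178 DKO, 0 KO and 683 WT cells.

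The erythroid-progenitor-like class, 984 of the 4920 KO cells, held 84.3% of the Klf1 UMIs of that library (83.2 to 85.3). In DKO the erythroid and basophil-mast cluster, 2.91% of the cells, held 61.9% of the Klf1 UMIs (58.9 to 64.8) and the 2 erythroid-progenitor-like cells 4.02%. In WT the 46 cells of that cluster, 0.565% of the library, held 36.9% (32.0 to 41.9), and megakaryocyte-progenitor-like cells 37.6% (32.8 to 42.7). The line between the erythroid-progenitor-like class and that cluster moves with the clustering, since at a Leiden resolution of 1.5 the erythroid-progenitor-like class held 59.4% of the Klf1 UMIs of DKO, 92.8% of those of KO and 40.2% of those of WT.

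Gata1, the shared factor of both lineages, reached into the megakaryocyte-progenitor-like class. Its level was 126.7 CPM in KO erythroid-progenitor-like cells (121.1 to 132.5). In the erythroid and basophil-mast cluster it was 105.6 CPM in DKO (95.4 to 116.6), 89.1 in KO (79.6 to 99.4) and 116.5 in the 46 WT cells (91.1 to 146.7), intervals that overlap for each pair. The DKO over KO ratio there was 1.19 (1.02 to 1.38), an interval that leaves out 1. Megakaryocyte-progenitor-like cells followed, at 61.9 CPM in DKO (57.9 to 66.2), 66.1 in KO (60.0 to 72.6) and 47.5 in WT (42.3 to 53.2), with WT below the other two. Those cells held 52.1% of the Gata1 UMIs of DKO, 15.3% of those of KO and 56.7% of those of WT, while KO erythroid-progenitor-like cells held 68.4%. Stem-cell-like cells had 6.99 CPM in DKO and 2.49 in WT, and lymphoid-primed-like cells 0.590 and 0.156.

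Gata2 was high in both the megakaryocyte-progenitor-like class and the erythroid and basophil-mast cluster. It stood at 199.97 CPM in DKO, 123.9 in KO and 182.1 in WT megakaryocyte-progenitor-like cells. In the erythroid and basophil-mast cluster it stood at 186.3 in DKO, 149.4 in KO and 177.9 in the 46 WT cells. Stem-cell-like cells had 139.7 CPM in DKO (132.7 to 147.0) and 106.8 in WT (98.7 to 115.3). KO erythroid-progenitor-like cells had 89.4 (84.7 to 94.3), below each of these, and the KO cluster led by Ifitm1 and Vldlr, with 1922 cells, had 32.6. Lymphoid-primed-like cells stood at 18.7 CPM in DKO and 21.3 in WT, and B-lineage-like cells at 6.71 and 5.64.

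Gata1 UMIs per Gata2 UMI were taken from sums over each library or kind of cell, and the ratio was compared between them. The kinds of cell belong to several lineages, and whether they lie in order along the GATA succession was not tested. The ratio was 0.165 in the whole DKO library (0.156 to 0.173), 0.678 in KO (0.646 to 0.711) and 0.114 in WT (0.104 to 0.125). By class the ratio was 1.42 in KO erythroid-progenitor-like cells (1.32 to 1.52), the one unit of at least 50 cells with more Gata1 than Gata2 UMIs. It was 0.567 in DKO and 0.596 in KO cells of the erythroid and basophil-mast cluster, where the intervals overlapped. Megakaryocyte-progenitor-like cells had 0.310 in DKO (0.287 to 0.334), 0.533 in KO (0.473 to 0.6005) and 0.261 in WT (0.229 to 0.296), with KO above both. Stem-cell-like cells had 0.05 in DKO (0.0390 to 0.0632) and 0.0234 in WT (0.0130 to 0.0388).

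**Figure D2:**
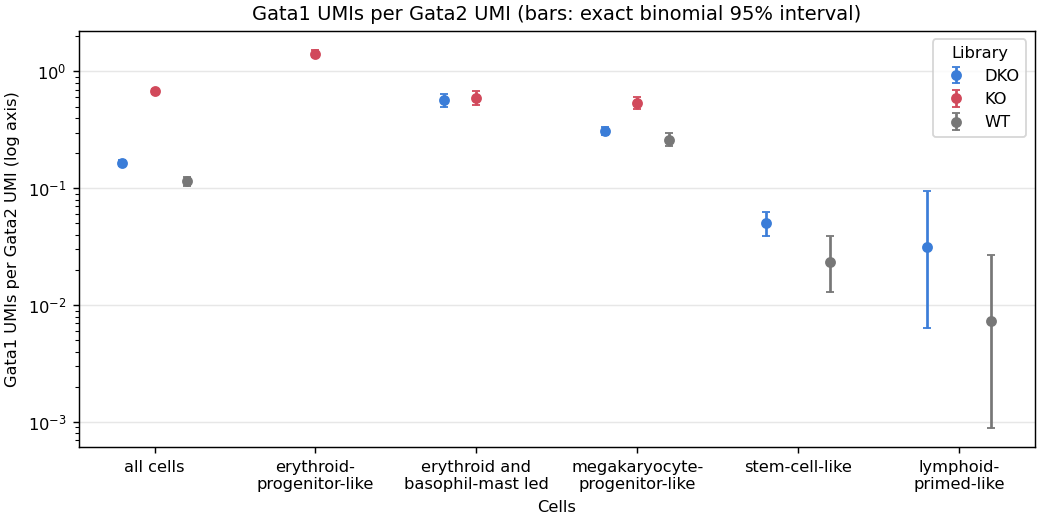
Gata1 UMIs per Gata2 UMI on a log axis, for whole libraries and for kinds of cells with at least 50 cells in the library, with exact binomial 95% intervals. The ratio is 1.42 in KO erythroid-progenitor-like cells and 0.0234 in WT stem-cell-like cells, and in megakaryocyte-progenitor-like cells KO (0.533) lies above DKO (0.310) and WT (0.261).

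Zfpm1, Tal1 and Gfi1b were spread over the erythroid-like and megakaryocyte-like cells. Zfpm1 was at 90.1 CPM in KO erythroid-progenitor-like cells and at 75.7, 82.7 and 74.8 in DKO, KO and WT megakaryocyte-progenitor-like cells, where the 3 intervals overlapped. Tal1 was at 59.8 CPM in KO erythroid-progenitor-like cells, against 49.4 in DKO, 56.9 in KO and 61.4 in WT megakaryocyte-progenitor-like cells and 46.2 in DKO and 62.0 in WT stem-cell-like cells. Gfi1b was at 58.2 CPM in KO erythroid-progenitor-like cells, and at 49.3, 56.4 and 58.9 in DKO, KO and WT megakaryocyte-progenitor-like cells. Gfi1b was low in KO neutrophil-progenitor-like cells, at 0.399 CPM, where Tal1 still had 11.7. Of the 2 B-lineage-like clusters in WT, Zfpm1 stood at 21.7 CPM (18.3 to 25.5) in the one led by Igll1 and Vpreb1 (428 cells) and at 5.38 (4.03 to 7.04) in the one led by Ly6d and Dntt (819 cells).

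Lmo2 and Nfe2 were found in all classes. Lmo2 stood at 862.4 CPM in DKO and 906.9 in WT stem-cell-like cells and at 660.8, 549.6 and 617.3 in DKO, KO and WT megakaryocyte-progenitor-like cells. KO erythroid-progenitor-like cells (280.0) and KO neutrophil-progenitor-like cells (384.4) were lower, and WT B-lineage-like cells lower still (167.1). Nfe2 stood at 152.7 CPM in DKO and 169.1 in WT stem-cell-like cells, at 126.0, 113.9 and 134.3 in DKO, KO and WT megakaryocyte-progenitor-like cells and at 84.2 in KO erythroid-progenitor-like cells. The KO neutrophil-progenitor-like cells, 22.6% of the cells of that library, had 41.7 CPM of Nfe2.

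**Figure D3:**
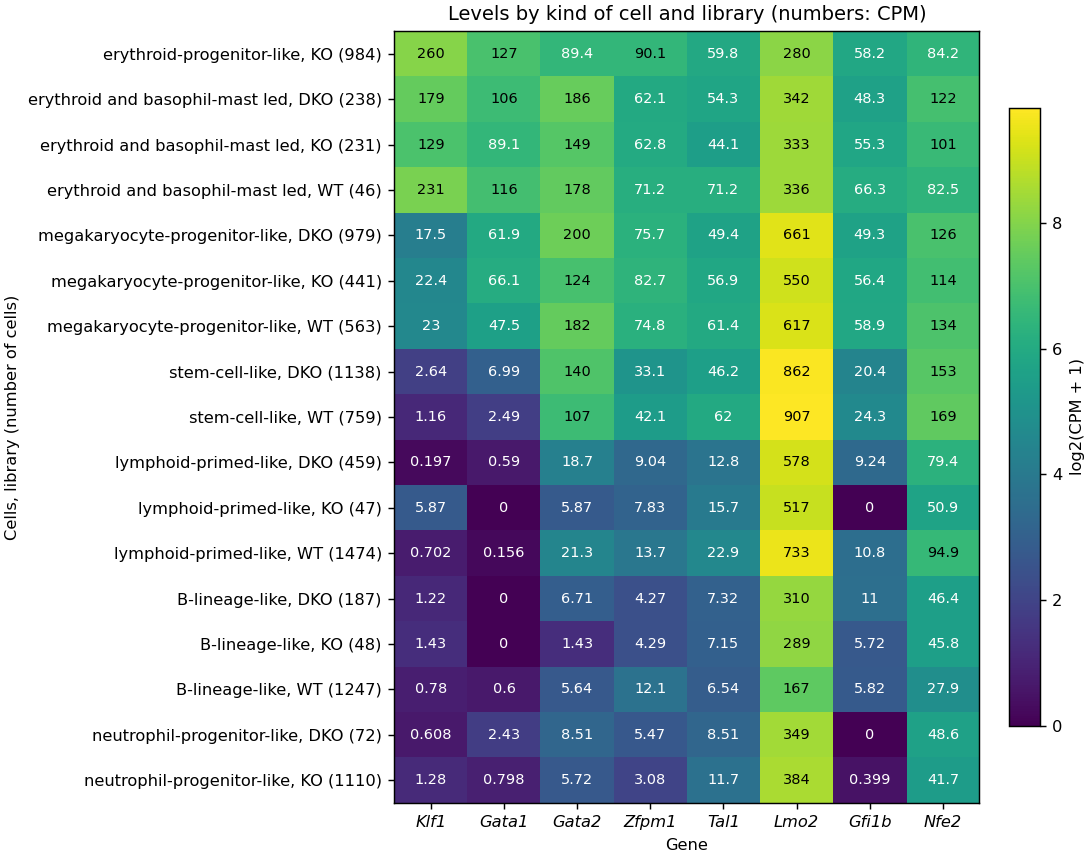
Levels of the members (columns) by kind of cell and library (rows, with the number of cells), printed in CPM and coloured by log2(CPM + 1), with rows under 50 cells shown for the erythroid and basophil-mast, lymphoid-primed-like and B-lineage-like cells. Klf1 runs from 260.0 CPM in KO erythroid-progenitor-like cells to 0.197 in DKO lymphoid-primed-like cells, while Lmo2 is above 160 in each row.

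**Figure D4:**
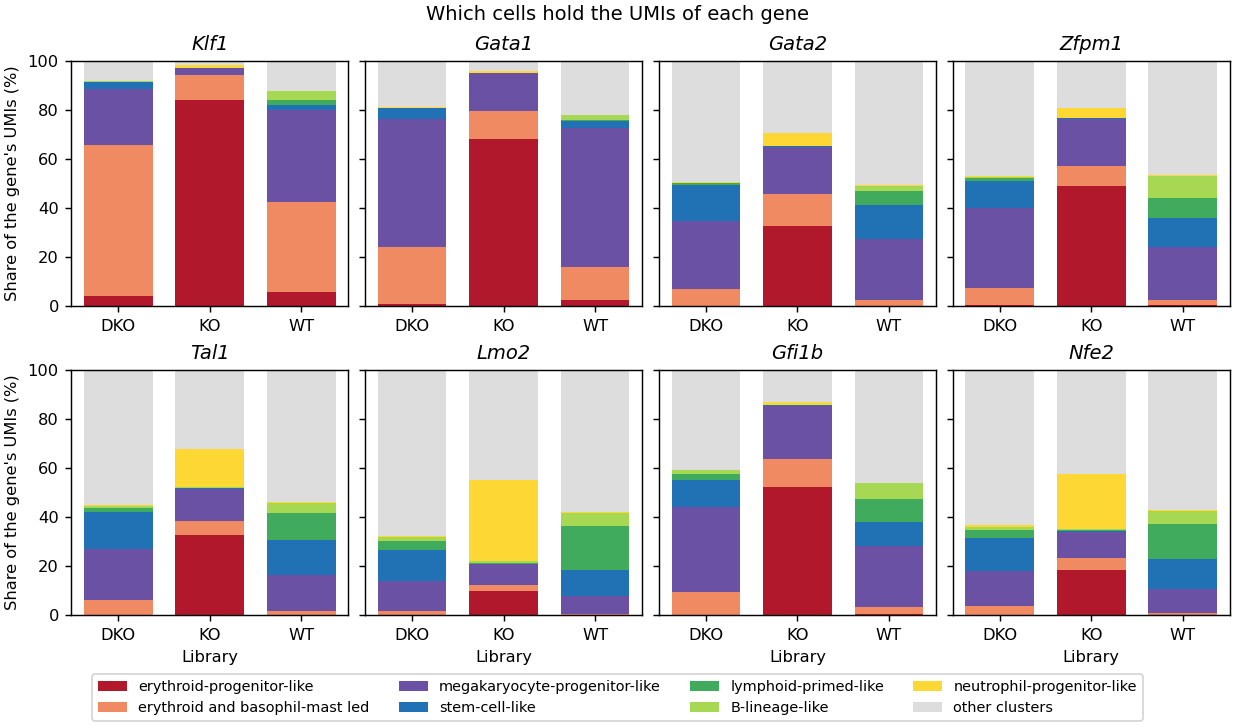
Share of the UMIs of each gene, in percent, that lay in each kind of cell, with 1 bar each for DKO, KO and WT and unnamed clusters other than the erythroid and basophil-mast cluster in grey. Erythroid-progenitor-like cells hold 84.3% of the Klf1 and 68.4% of the Gata1 UMIs of KO, but 9.75% of its Lmo2 UMIs.

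Members were also found together in single cells. With cells thinned to 5500 UMIs, 5 or more of the 8 members had a UMI in 28.0% of KO erythroid-progenitor-like cells, and in 31.2% of DKO and 22.5% of KO cells of the erythroid and basophil-mast cluster. In megakaryocyte-progenitor-like cells the shares were 14.9% in DKO, 14.5% in KO and 15.5% in WT, and in stem-cell-like cells 3.83% in DKO and 2.80% in WT. Of the thinned megakaryocyte-progenitor-like cells with a Gata1 UMI, 61.7% in DKO, 43.3% in KO and 61.7% in WT also had a Gata2 UMI. Among KO erythroid-progenitor-like cells this was 39.6%. These values lay near the Gata2 shares of all thinned cells of the same kind, with or without Gata1. Those were 62.6% in DKO, 44.4% in KO and 58.3% in WT megakaryocyte-progenitor-like cells, and 38.5% in KO erythroid-progenitor-like cells. These shares depend on the level of each gene, and 1 UMI in a thinned cell is worth 181.8 CPM.

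Within the megakaryocyte-progenitor-like class the ratios of Klf1 and Gata1 were closer to 1 than in whole libraries, while those of some other members were farther from it. KO over WT, 0 of the 8 members were called in either direction, against 2.79% higher and 6.36% lower of 8951 genes. Klf1, 10.2-fold higher in the whole KO library, had a ratio of 0.974 there (0.769 to 1.23). Gata1 had a ratio of 1.39 (1.20 to 1.62) and Gata2 of 0.680 (0.621 to 0.745), in place of 0.757 in all cells. DKO over KO, Gata2 was 1.61-fold higher (1.49 to 1.75) and was the 1 member called, against 8.65% higher and 3.04% lower of 8929 genes, while Klf1 had 0.778 (0.631 to 0.961) and Gata1 0.937 (0.834 to 1.05). Under the 5 other clusterings and without the highest doublet scores that Gata2 ratio ran from 1.39 to 1.60, above and below the threshold. DKO over WT, 0 members were called, against 4.36% higher and 3.68% lower of 9027 genes, with 1.30 for Gata1 (1.14 to 1.49) and 0.757 for Klf1 (0.615 to 0.936). For that pair Tal1 had 0.805 (0.710 to 0.914) in the class and 0.975 in all cells, and Gfi1b had 0.838 (0.738 to 0.954) and 1.03.

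Markers of the class itself also differed between the libraries. Pf4 stood at 1018 CPM in DKO, 1941 in KO and 480.7 in WT megakaryocyte-progenitor-like cells, and Itga2b at 193.8, 198.9 and 103.5. The neutrophil gene Elane stood at 5.51 CPM in DKO, 35.8 in KO and 3.16 in WT cells of the class. The part of these differences in the member ratios was not tested.

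In stem-cell-like cells, DKO over WT, 0 of the 6 members that reached 5 CPM were called, against 6.57% higher and 3.96% lower of 9421 genes. Gata2 had a ratio of 1.31 (1.19 to 1.44), Tal1 of 0.744 (0.649 to 0.854) and Zfpm1 of 0.788 (0.668 to 0.930). Gata1, with 74 UMIs in DKO and 15 in WT, had a ratio of 2.80 (1.59 to 5.25) but a mean under 5 CPM. In the erythroid and basophil-mast cluster, DKO over KO, 0 of the 8 were called, against 8.18% higher and 4.92% lower of 8562 genes, and the Klf1 ratio was 1.38 (1.23 to 1.56). Other genes also differed in those cells, with Car1 at 2289 CPM in DKO and 1239 in KO, Epor at 57.8 and 32.7, the mast cell and basophil gene Ms4a2 at 66.7 and 106.9 and the neutrophil gene Elane at 11.3 and 165.3, and their part in the Klf1 ratio was not tested. In lymphoid-primed-like cells, DKO over WT, Tal1 was 1.79-fold lower (1.36 to 2.38) and Zfpm1 1.52-fold lower (1.09 to 2.15) of 6 measured members, against 4.15% higher and 5.48% lower of 9075 genes. In B-lineage-like cells Nfe2 (1.66-fold), Gfi1b (1.89-fold) and Lmo2 (1.86-fold) were higher and Zfpm1 2.82-fold lower in DKO than in WT, against 8.95% higher and 7.34% lower of 8830 genes. The DKO cells of that class were 180 of the Ly6d-led and 7 of the Igll1-led cluster, in place of 819 and 428 in WT. Within the Ly6d-led cluster alone the DKO over WT ratios were 1.23 for Nfe2 (1.01 to 1.495), 1.41 for Gfi1b (0.921 to 2.11), 1.39 for Lmo2 (1.29 to 1.498) and 0.757 for Zfpm1 (0.379 to 1.41), so none of the 4 was past 1.5-fold there. Neutrophil-progenitor-like cells, DKO over KO, had 0 of 4 measured members called, against 15.2% higher and 10.6% lower of 8324 genes.

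**Figure D5:**
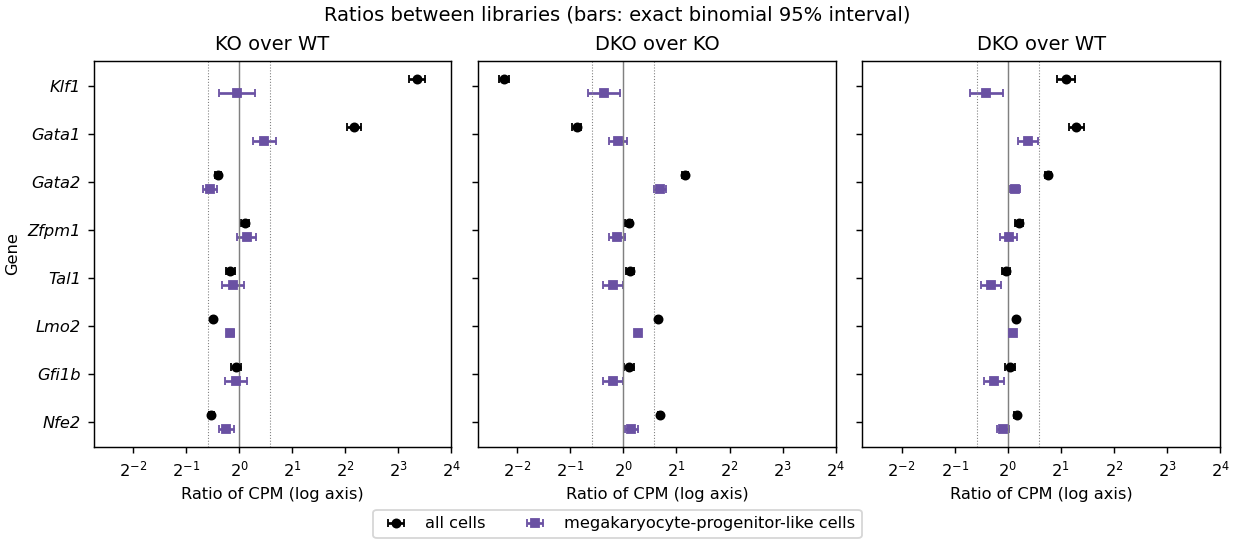
Ratio of each member between 2 libraries on a log axis, in all cells (circles) and in megakaryocyte-progenitor-like cells (squares), with exact binomial 95% intervals and dotted lines at 1.5-fold in either direction. For KO over WT, Klf1 lies at 10.2 in all cells and at 0.974 in megakaryocyte-progenitor-like cells.

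The library ratios were next computed without the erythroid-progenitor-like cells. KO over WT, Klf1 was then 2.004-fold higher and Gata1 1.71-fold higher, and 3 members were called lower, namely Gata2 (1.67-fold), Zfpm1 (1.54-fold) and Gfi1b (1.84-fold). DKO over KO, Klf1 came to 1.09 and Gata1 to 1.45, while Gata2 (2.83-fold), Gfi1b (1.91-fold), Zfpm1 (1.78-fold) and Nfe2 (1.68-fold) were higher and Lmo2 stood at 1.48. In a setting chosen after seeing the data, the erythroid and basophil-mast cluster was left out as well. KO over WT, Klf1 then stood at 1.27 and Gata1 at 1.32, and 0 members were called higher and 4 lower. In DKO over WT, Klf1 stood at 1.31 in that setting, while Gata1 was 2.26-fold and Gata2 1.66-fold higher in DKO. The share of all genes called was not counted in either setting, so whether these counts of members are unusual cannot be read from them.

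Genes known as partners or targets of the members were counted by the same rule, and each count reads against the share of all genes. That share was 7.77% higher and 17.1% lower for KO over WT, 17.9% and 6.32% for DKO over KO, and 3.62% and 3.55% for DKO over WT. Of 14 partners of the TAL1 and LMO2 complex, 0 were higher and 6 lower in KO than in WT, among them the ETS factor Erg (3.09-fold lower) and the E protein Tcf4 (2.22-fold), while TMM gave 4 lower and median-of-ratios factors 3. DKO over KO, 3 were higher and 0 lower, a share near that of all genes, with Erg 2.74-fold higher. Of 17 corepressor subunits that FOG1 or GFI1B recruit, 2 were lower in KO than in WT, Mta3 (2.68-fold) and Rcor2 (2.11-fold), and these 2 were the ones higher in DKO than in KO, shares no larger than those of all genes. The NF-E2 relatives had 1 of 6 lower in KO than in WT, the repressor gene Bach2 (4.57-fold lower), again near the share of all genes. DKO over WT, Cbfa2t3 of the complex (1.70-fold) and Bach2 (2.15-fold) were lower, and 0 of the 17 corepressor genes were called.

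Of 26 erythroid genes measured, 20 were higher and 0 lower in KO than in WT, with a median log2 ratio of 1.67. Tspo2 was 44.2-fold higher, the ammonium channel gene Rhag 24.7-fold and Ermap 19.6-fold. DKO over KO, 19 were lower and 1 higher, and DKO over WT, 4 were higher and 4 lower of 19, with Car1 4.27-fold and the water channel gene Aqp1 2.94-fold higher and Hbb-bs 2.41-fold and Hba-a2 4.64-fold lower. Several of these genes are also markers that named the erythroid-progenitor-like cells, so the counts are not independent of that class. Of 15 megakaryocyte genes, 6 were higher and 3 lower in KO than in WT, with Pf4, a platelet chemokine, 3.71-fold higher. DKO over WT, 10 of 14 were higher and 0 lower, among them Gp5 (3.39-fold) and Itga2b (3.18-fold).

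Mast and basophil genes, some of which GATA2 is known to bind, were higher in KO than in WT for 4 of 6 measured and lower for 1, with Fcer1a 13.7-fold higher. DKO over WT, 3 of 6 were higher and 0 lower, and the mast cell protease gene Cpa3 was 4.71-fold higher. Of 23 other factors of these lineages, 0 were higher and 10 lower in KO than in WT, including Meis1 (2.44-fold) and Mef2c (2.31-fold), and DKO over KO 9 were higher and 0 lower. With TMM these became 1 higher and 8 lower for KO over WT, and 6 higher and 0 lower for DKO over KO. Of 12 factors of opposing lineages, 4 were higher and 6 lower in KO than in WT, where Ebf1 of the B lineage was 110-fold lower and the granulocyte factor gene Cebpe 6.88-fold higher. Pax5, also of the B lineage, had 0 UMIs in KO and 1278 in WT. Summed markers of the erythroid list stood at 933.3 CPM in DKO, 1727 in KO and 756.8 in WT, those of neutrophil progenitors at 2031, 7786 and 1059 and those of the B lineage at 66.8, 43.5 and 922.1, and none of the markers in these lists was at 0 in all libraries.

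Across 33 units of 1 cluster in 1 library with at least 50 cells, the members were compared by the Pearson correlation of log2(CPM + 1). The units share libraries, depth and clusters, so the values are a description. Klf1 and Gata1 were closest to each other among members (0.893), while Gata2 and Tal1 (0.918), Nfe2 and Lmo2 (0.881) and Gata2 and Nfe2 (0.867) also had high values. Zfpm1 lay at 0.739 from Gata1, 0.844 from Gata2 and 0.183 from Lmo2, and Klf1 and Lmo2 had the lowest value of the 28 pairs (-0.247). Among 4768 genes, those closest to Klf1 were Aqp1 (0.921), Mt2 (0.901), Gata1, Car1 (0.878) and the haem synthesis gene Cpox (0.877). Those closest to Gata1 were Aqp1 (0.895), Klf1, Nadk2 (0.876), Nt5c3 (0.835) and Arpc1a (0.824). Gata2 was closest to the transferrin receptor gene Tfr2 (0.966), Sdsl (0.954), Vamp5 (0.946), Stat5a (0.937) and Gse1 (0.936). The closest gene was Igf1r for Tal1 (0.925), Gnb4 for Zfpm1 (0.912), Smim5 for Gfi1b (0.906), Rab38 for Nfe2 (0.948) and Neurl3 for Lmo2 (0.906).

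Genes beside the members gave no common pattern. Klf1 (chr8:84901928-84905291, plus strand) has Gcdh and Dnase2a as its nearest measured genes, with KO over WT ratios of 1.06 (0.980 to 1.14) and 0.896 (0.855 to 0.940). Hdac6 and Suv39h1, beside Gata1, had ratios of 0.741 and 1.10. Beside Gata2 (chr6:88193891-88207032, plus strand), Rpn1 stood 2.11-fold above WT in KO, and Eefsec had 0.772. Pdzk1ip1, beside Tal1, was 3.06-fold lower in KO than in WT and 2.56-fold higher in DKO than in KO. Zfpm1 shares its strand and part of its span with Gm20388, which was not analysed here, so their reads may not be separable. Lmo2 overlaps 4931422A03Rik on the other strand, a gene with 0.391 CPM in DKO, 0.197 in KO and 0.408 in WT.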

How the data were processed

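Libraries were made with the Chromium Single Cell 3' v2 kit per the labels' protocols. Per the submitters' processing notes, Cell Ranger, Seurat and bcl2fastq were used with mm10. Their versions and roles are not given in the sources used here. The authors deposited UMI counts, all whole numbers, for 14721 genes in 21251 cells. The deposited normalized table holds natural log values, ln of 1 plus 10000 times the count over the cell's total, at all 69176581 nonzero entries within 0.001, and was not used further.

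UMI counts were summed over cells and divided by the total to give CPM. Levels carry exact Poisson, ratios exact conditional binomial and shares of cells Clopper-Pearson 95% intervals, which cover counting error only. With 1 library per genotype no test was possible. A count of 0 allows up to 3 counts, or 0.0273 CPM in DKO, 0.0296 in KO and 0.0350 in WT. On counts simulated from the WT profile at the KO and WT depths over 9218 genes, the 1.5-fold call found all 33 genes set at 2-fold, all 34 at 0.5-fold and 0 of 9018 unchanged genes. These simulated counts held counting error only, which is small at this depth. They held no variation between cells, animals or libraries, so they give no rate of false calls between genotypes.

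Clusters used 2000 variable genes (leaving out the members and the cell cycle, ribosomal, mitochondrial and sex-linked genes) with 30 principal components, 20 neighbours and Leiden resolution 1 (scanpy 1.11.5, leidenalg 0.10.2). Scrublet called 0.0489% of DKO, 0.793% of KO and 0.0245% of WT cells, which shows that its threshold had not worked, and no cell was removed as a doublet. An alternative removed the 536, 194 and 531 cells with the highest scores. TMM factors came from edgeR 4.0.16 and median-of-ratios factors from DESeq2 1.42.0. Positions came from GENCODE vM21 (GRCm38, the same assembly as mm10), where 14216 of 14721 symbols matched 1 gene.

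The members, gene lists, markers and the rule that names clusters were chosen with earlier results of these data known. Genes named are the 8 members, up to 4 measured genes of each list with the largest ratios of a pair, the 5 genes closest to each member, the nearest measured gene on each side, and genes that check labels or define clusters. Some genes that this rule names are not reported here. Alternatives were other scalings, cell weights, thresholds, cell filters and clusterings.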

Additional observations from a re-analysis of the deposited data

Results flagged for a closer look

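Ratios within classes were picked out where 2 kinds of cells had ratios on opposite sides of 1 for the same pair of libraries, both with counting intervals that left out 1. These differences between kinds of cells were not tested. DKO over KO, Klf1 had a ratio of 1.38 in the erythroid and basophil-mast cluster and 0.778 in megakaryocyte-progenitor-like cells. Lmo2 had 1.20 in megakaryocyte-progenitor-like cells and 0.908 in neutrophil-progenitor-like cells for the same pair.

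DKO over WT, Lmo2 had 1.86 in B-lineage-like, 1.07 in megakaryocyte-progenitor-like, 0.951 in stem-cell-like and 0.788 in lymphoid-primed-like cells. Nfe2 had 1.66 in B-lineage-like, 0.903 in stem-cell-like and 0.837 in lymphoid-primed-like cells, and Gfi1b 1.89 in B-lineage-like and 0.838 in megakaryocyte-progenitor-like cells. The B-lineage-like values set 180 Ly6d-led and 7 Igll1-led DKO cells against 819 and 428 WT cells, and within the Ly6d-led cluster the DKO over WT ratios were 1.39 for Lmo2, 1.23 for Nfe2 and 1.41 for Gfi1b, the last with an interval (0.921 to 2.11) that holds 1. Lmo2 stood at 228.5 CPM in the first and 78.3 in the second of these WT clusters.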

How the results depend on the processing

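Of 72 recomputed counts of members, 58 stayed within 1.5 times the value reported. DKO over KO, the 3 members higher became 1 with TMM, with median-of-ratios factors, at a 2-fold threshold and without erythroid, neutrophil and B lineage classes. The 2 members lower became 1 at the 2-fold threshold and 0 without the erythroid-progenitor-like class, alone or with the other 2 classes. At a minimum of 20 CPM, 1 member was higher both for KO over WT, in place of 2, and for DKO over WT, in place of 3, because fewer members reached that level. KO over WT, the 0 members lower became 3 without the erythroid-progenitor-like class. In the setting chosen after seeing the data, also without the erythroid and basophil-mast cluster, KO over WT had 0 higher and 4 lower and DKO over KO 5 higher and 0 lower. For settings that left cells out, the share of all genes called was not counted. Counts of listed genes, also recomputed after seeing the data, stayed within 1.5 times in 87 of 96 cases. With TMM and with median-of-ratios factors alike, DKO over KO, 0 erythroid and 1 mast or basophil genes were higher and 5 opposing factors lower, in place of 1, 2 and 3, and KO over WT 1 other factor was higher in place of 0. With median-of-ratios factors alone, 3 complex partners were lower in KO than in WT in place of 6.

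The DKO over KO ratio turned to 1.45 for Gata1 and 1.09 for Klf1 without the erythroid-progenitor-like class, and to 1.71 and 1.03 without both groups of cells. In stem-cell-like cells, DKO over WT, Gata1 and Klf1 came to 0 at resolution 0.6, where the class held 66 DKO cells in place of 1138 and the intervals (up to 4.41 and 10.2) reach past 1, so that these 0 values show no change of direction. Klf1 came to 0.957 once cell cycle genes could enter the clustering and 0.668 with clusters made from WT cells. The cause was not tested. Counted by sign alone, these are the 4 of 216 recomputed library ratios and the 4 of 192 class ratios that were past 1.5-fold and changed direction. No paired analysis was possible because each genotype has 1 library. Depth limits Klf1 and Gata1 in stem-cell-like, lymphoid-primed-like and B-lineage-like cells, where 0 to 74 UMIs stand behind each value.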
